A study of Zea mays with 36 samples.

Results

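The genes described here are 6 maize genes of the plant cell wall: the expansins expa2, expB8 and EXPB1B, the hydroxyproline-rich glycoprotein HRGP, and the lignin enzymes pal3 and CAD2. Their spots were found by gene identity in the annotation of the array platform, and they make up 6 of the 740 genes that could be named. EXPB1B is also listed as EXPB9 and lop1, pal3 as PAL1, and CAD2 as BM1. In each of 6 biological replicates, RNA of shoot apical meristems (SAM) was set against RNA of whole seedlings on spotted cDNA slides. The SAM pool held 6 to 10 laser-captured meristems with their P0 and P1 leaf primordia. The seedling pool held the above-ground parts of 6 plants, which contain the apex as well. The plants, 14 days old, were all B73, an inbred, and came from a common planting. RNA of the pools was extracted by a kit for SAM and by a phenol solution for seedlings, so tissue and extraction cannot be told apart. About 10 ng per pool was amplified with T7 polymerase and 2 µg of the product was labelled. SAM carried Cy3 in replicates 1, 3 and 5 and Cy5 in replicates 2, 4 and 6. Every RNA pair went to a slide of a first set and a slide of a second set with other clones, and each slide has 3 deposited scans, at low, medium and high settings.

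A growing plant cell is held by a wall of cellulose fibres in a matrix of other polysaccharides. Expansins are small secreted proteins that loosen the contacts between these polymers without cutting them and so let the wall extend. Grasses have alpha-expansins such as expa2 and a large family of beta-expansins, to which the group-1 pollen allergens belong. HRGP is an extensin-type protein that becomes cross-linked into the wall. Lignin stiffens walls that have stopped growing, mainly in xylem and fibres. Its precursors begin with phenylalanine ammonia-lyase, the enzyme encoded by pal3, and end with cinnamyl alcohol dehydrogenase, encoded by CAD2. Loss of CAD2 gives the brown midrib1 phenotype, named for the colour of the leaf's main vein.

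All values are log2 ratios between the tissues, centred on the median probe of each scan and averaged over the scans of a slide. A log2 ratio of 1 is a 2-fold difference. The tissue in the numerator is not given in the sources used here, so the direction is a likely one. It was read from the photosynthesis genes, of which 9 of 11 in the first set and 9 of 9 in the second were called negative. Their median ratios were −5.71 and −5.32. The exceptions on the first set were Cab-m7, which lay on the positive side there, and OEE3, which did not pass. Of the meristem markers, 4 of 4 and 4 of 5 passed on the positive side, with median ratios of 0.77 and 1.95. Positive ratios are therefore called the SAM side and negative ratios the seedling side. In whole-tissue RNA, fewer cells of a type and less RNA per cell cannot be told apart. Since only ratios were used, no level of a gene within a tissue is given.

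On the first slide set HRGP and expa2 lay on the SAM side, whereas expB8, pal3, EXPB1B and CAD2 lay toward the seedling. The span ran from HRGP, 4.32-fold toward SAM, to CAD2, 12-fold toward the seedling. The 6 genes passed limma at an adjusted p of 0.05, 2 of them toward SAM and 4 toward the seedling. Of all 582 named genes of this set, 72.3% passed, 27.1% toward SAM and 45.2% toward the seedling. Passing was thus common among the named genes. The median ratio was −1.26 for the 6 genes and −0.24 for all named genes. Only EXPB1B had values on both slide sets.

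**Figure D1:**
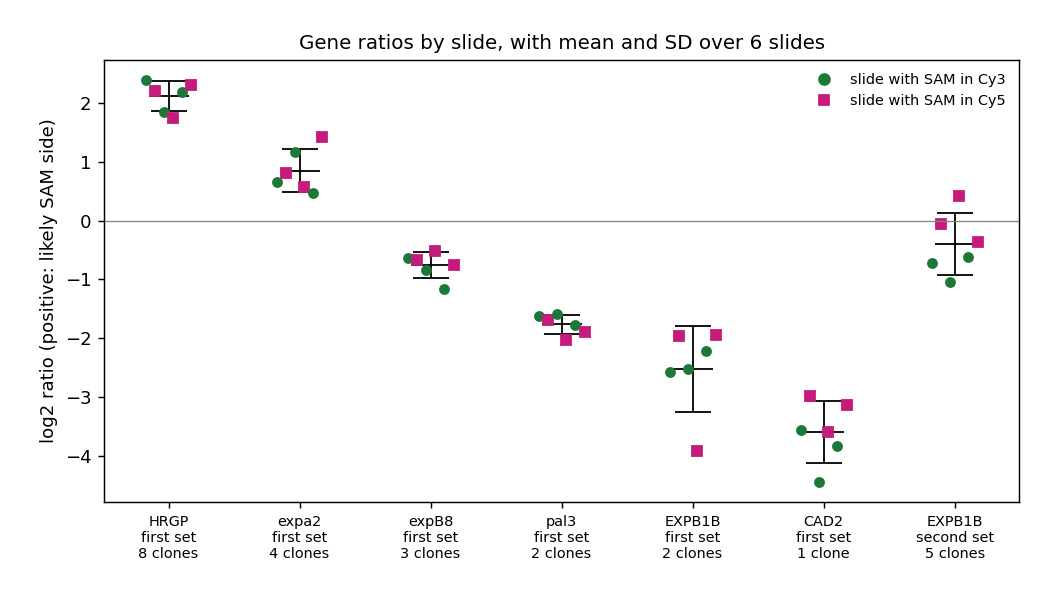
Log2 ratio of SAM over seedling (vertical axis) of each gene by slide set (horizontal axis). Each point is 1 of 6 slides, marked by the dye that SAM carried, and the bars are the mean and SD. HRGP and expa2 are above 0 on every slide of the first set and the other genes below 0, while EXPB1B on the second set lies between −1.05 and 0.41.

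The genes were represented by 29 annotated spots, each carrying a cDNA clone. Of these, 20 of 20 in the first set and 5 of 9 in the second had a value in the files. All 5 on the second set were clones of EXPB1B. Gene values are means over clones, and clones of a gene share the RNA and are not replicates. Of the first-set clones, 9 passed toward SAM, 7 toward the seedling, and the other 4 missed the threshold. Among all 18302 probes of that set 31.5% passed toward SAM and 31.0% toward the seedling. On the second set 0 of the 5 clones passed limma with Benjamini-Hochberg adjustment and 1, spot 498, had an unadjusted p under 0.05, against 64.6% of all 12027 probes passing on either side.

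Among the expansins, the alpha-expansin expa2 lay on the SAM side. Its ratio ranged from 0.47 to 1.42 with a median of 0.73, and was above 0 on all 6 slides. The mean was 0.85 ± 0.37 (SD, n = 6), a 1.80-fold difference with a 95% interval of 1.39 to 2.32 (limma adjusted p = 0.00257). Its place was 108 among the 582 named genes, counted from the SAM end. The gene value rested on 4 clones, of which spots 6334 and 15998 passed, at 1.20 ± 0.43 and 1.15 ± 0.71. Spot 6065 was near 0, at 0.26 ± 0.25 (limma adjusted p = 0.125). Spot 13013 ranged from −0.26 to 2.05 over the slides and averaged 0.77 ± 0.93 (limma adjusted p = 0.0769). In 5 of its 18 scans it was at the floor, the most frequent value of a scan. The clones of expa2 spanned 0.95 in mean ratio, close to the median span of 0.97 over the 296 genes with several clones.

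The beta-expansin expB8 lay on the seedling side, between −1.16 and −0.53 with a median of −0.71. Every slide was below 0, and the mean of −0.76 ± 0.22 (SD, n = 6) was a 1.69-fold difference with a 95% interval of 1.43 to 2.01 (limma adjusted p = 0.000663). Its clones did not run together. Spot 4928 was at −1.58 ± 0.26 and spot 17621 at −0.96 ± 0.63, and both passed on the seedling side. Spot 3822 was at 0.25 ± 0.39 and did not pass (limma adjusted p = 0.222). The span of 1.83 among these 3 clones was just above the upper quartile of 1.73 for genes with several clones. Spot 17621 also differed with the dye, at −1.51 with SAM in Cy3 and −0.41 with SAM in Cy5 (limma adjusted p of the dye term = 0.0376). The difference was of like size in each scan, from −1.18 to −1.03.

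The beta-expansin EXPB1B had the widest spread of the 6 genes. On the first set its slides ranged from −3.91 to −1.94 with a median of −2.37. The mean was −2.52 ± 0.73 (SD, n = 6), a 5.74-fold difference toward the seedling with a 95% interval of 3.60 to 9.16 (limma adjusted p = 0.000254). Replicate 4 stood apart at −3.91, and without it the fitted ratio was −2.20. That mean was set by a pair of clones far apart. Spot 16881 gave −4.61, −4.22, −4.41, −7.04, −3.76 and −3.59 in replicates 1 to 6. It averaged −4.61 ± 1.25, the farthest seedling-side clone among the 25. Spot 15635 lay much closer to 0, between −0.78 and 0.29 with a mean of −0.44 ± 0.39 (limma adjusted p = 0.0445). Its call was lost in the medium scan alone, without a dye term, with SAM in Cy5 alone, and on leaving out replicate 1, 3, 4, 5 or 6. The scans of spot 16881 differed by up to 6.78 on a slide. That slide was replicate 6, whose low scan was the 1 of 18 at the floor. The difference of SAM in Cy3 minus SAM in Cy5 changed sign with the scan at this spot. It was −3.57 in the low, 1.83 in the medium and 3.80 in the high scan. The distance of 4.17 between these clones was the widest among the 6 genes.

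On the second set EXPB1B was nearer to 0, with slides from −1.05 to 0.41 and a median of −0.49. Its mean of −0.40 ± 0.52 (SD, n = 6) passed the threshold on the seedling side (limma adjusted p = 0.0239), as did 45.7% of the 455 named genes of that set. The ratio was −0.79 with SAM in Cy3 and −0.0024 with SAM in Cy5, and the dye term did not pass (limma adjusted p = 0.133). That call was lost under several alternatives: the low scan alone gave −0.46 and the high scan alone −0.046, with adjusted p of 0.362 and 0.742. Leaving out replicate 2, 3 or 6 also lost it. The ratio of the gene differed between the sets by −2.12 ± 0.34 (SE), first minus second (limma adjusted p = 0.000576). Such a difference passed for 34.7% of the 297 genes named on both sets. It rested on the first-set clone at spot 16881. Without that clone, an alternative added after seeing the data, the difference was −0.041 and did not pass (limma adjusted p = 0.884). With spot 16881 as the only first-set clone it was −4.21.

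The 5 second-set clones of EXPB1B had mean ratios from −1.40 ± 1.87 (spot 8875) to 0.52 ± 1.69 (spot 4465). Their SDs, from 0.83 to 3.04, were larger than the distance of their means from 0. Spot 498 was the extreme case. With SAM in Cy3 it gave −3.79, −3.93 and −2.28, and with SAM in Cy5 it gave 2.01, 2.34 and 2.01. The sign therefore followed the dye on all 6 slides, and the difference of −5.45 passed (limma adjusted p of the dye term = 0.0025). A dye term passed for 8.41% of the probes of this set. The other 4 clones were at the floor in 3 to 5 of their 18 scans. Single slides decided 3 of these results: without replicate 1, spots 4062 and 8875 passed on the seedling side at −0.91 and −0.65, and without replicate 5 spot 498 did at −0.87.

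**Figure D2:**
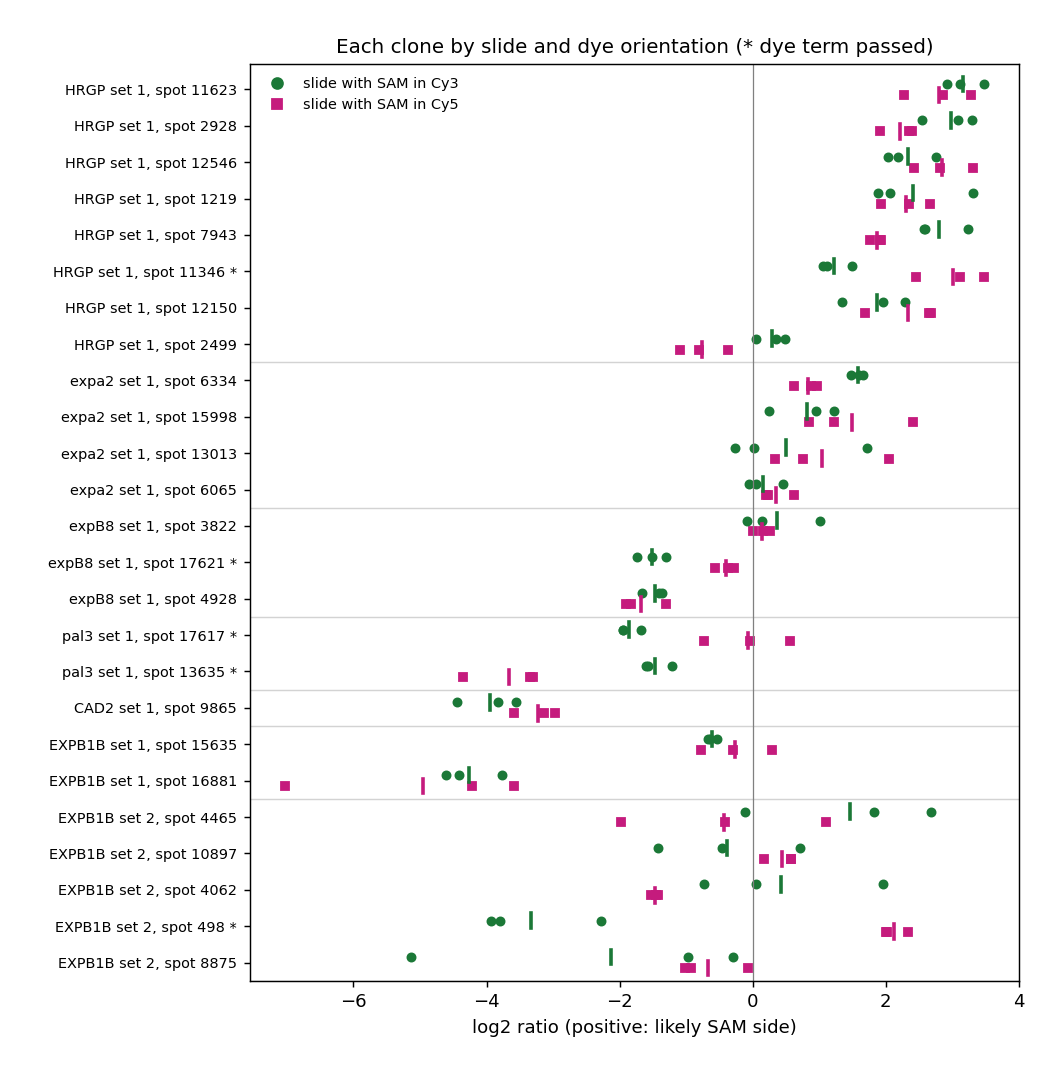
Log2 ratio of SAM over seedling (horizontal axis) of each of the 25 clones (rows, by gene and slide set). Points are slides with SAM in Cy3 and with SAM in Cy5, 3 each, the tick beside them is their mean, and an asterisk marks clones whose dye term passed. Clones of HRGP other than spot 2499 lie above 1 in both dyes, while EXPB1B spot 498 lies at −3.33 with SAM in Cy3 and 2.12 with SAM in Cy5.

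HRGP, the structural wall protein, lay farthest to the SAM side of the 6 genes and was also the best covered, with 8 clones. Its slides ranged from 1.74 to 2.39 with a median of 2.19. The mean of 2.11 ± 0.26 (SD, n = 6) was a 4.32-fold difference with a 95% interval of 3.51 to 5.30 (limma adjusted p = 1.85e-05). It held place 12 of 582 from the SAM end, above 97.9% of the named genes. The dye orientations gave 2.14 with SAM in Cy3 and 2.08 with SAM in Cy5, a gap smaller than the SD over the slides.

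Of the 8 HRGP clones 7 passed on the SAM side, at mean ratios from 2.10 (spot 12150) to 2.99 (spot 11623). The remaining clone, spot 2499, was near 0. It gave 0.05, 0.36 and 0.49 with SAM in Cy3 and −0.81, −1.09 and −0.37 with SAM in Cy5. Its mean was −0.23 ± 0.64 (limma adjusted p = 0.191), and it lay below every other HRGP clone on 6 of 6 slides. The distance from the mean of the other 7 clones, which was 2.44, was −2.67. An exact sign-flip permutation test of that distance over 6 slides gave p = 0.03125, the smallest it can give, and 0.0833 after adjustment over 24 clones. Spots 2928, 11623 and 12546, above the mean of the other HRGP clones on 6 of 6 slides, gave the same values in this test. So did clones of expB8, expa2 and EXPB1B, so the test does not single out spot 2499. HRGP clones spanned 3.22 in mean ratio, above the upper quartile of 1.73 over the genes with several clones. Which transcripts each clone detects was not tested.

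Of the HRGP clones, only spot 11346 passed for the dye term after adjustment. It gave 1.5, 1.06 and 1.12 with SAM in Cy3 and 3.11, 2.46 and 3.47 with SAM in Cy5. The ranges did not overlap, although every value was on the SAM side (limma adjusted p of the dye term = 0.0333). The dye ranges of spots 2499, 7943 and 2928 did not overlap either, with the higher values under SAM in Cy3, opposite to spot 11346. Their limma adjusted p of the dye term was 0.0524, 0.0612 and 0.118, so none of them passed. The share of all probes with dye ranges that do not overlap is not given here. For spot 11346 the dye gap was almost the same in the 3 scans, at −1.79, −1.80 and −1.77 in the low, medium and high scan. Among the 20 first-set clones 4 passed for the dye term, against 12.7% of all probes of the set.

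The lignin enzymes both lay on the seedling side. For pal3, at the entry to the phenylpropanoid path, the slides ranged from −2.02 to −1.58 with a median of −1.73. The mean of −1.76 ± 0.17 (SD, n = 6) was a 3.40-fold difference with a 95% interval of 2.92 to 3.95 (limma adjusted p = 1.19e-05). Its SD was the smallest of the 6 genes, but its 2 clones differed more from slide to slide than their mean did. Spot 13635 gave −1.57, −1.21 and −1.60 with SAM in Cy3 and −3.34, −3.31 and −4.35 with SAM in Cy5. Spot 17617 ran the other way, at −1.68, −1.95 and −1.94 with SAM in Cy3 and −0.04, −0.73 and 0.57 with SAM in Cy5. Both clones passed for the dye term (limma adjusted p = 0.0329 and 0.0358), with dye differences of 2.21 and −1.79 that offset each other in the gene value.

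The pal3 ratio also depended on the scan. It was −2.74 in the low scan, −1.25 in the medium scan and −1.30 in the high scan. Spot 13635 carried this difference. In the low scan with SAM in Cy5 it gave −5.98, −7.03 and −9.54, against −1.53, −1.25 and −1.91 in the medium scan of the same slides. Its dye gap was 5.84 in the low scan, 0.13 in the medium scan and 0.65 in the high scan. For spot 17617 the gap was −1.62, −1.92 and −1.83 in these scans. The seedling-side direction of pal3 held in each scan alone, with limma passing in each.

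**Figure D3:**
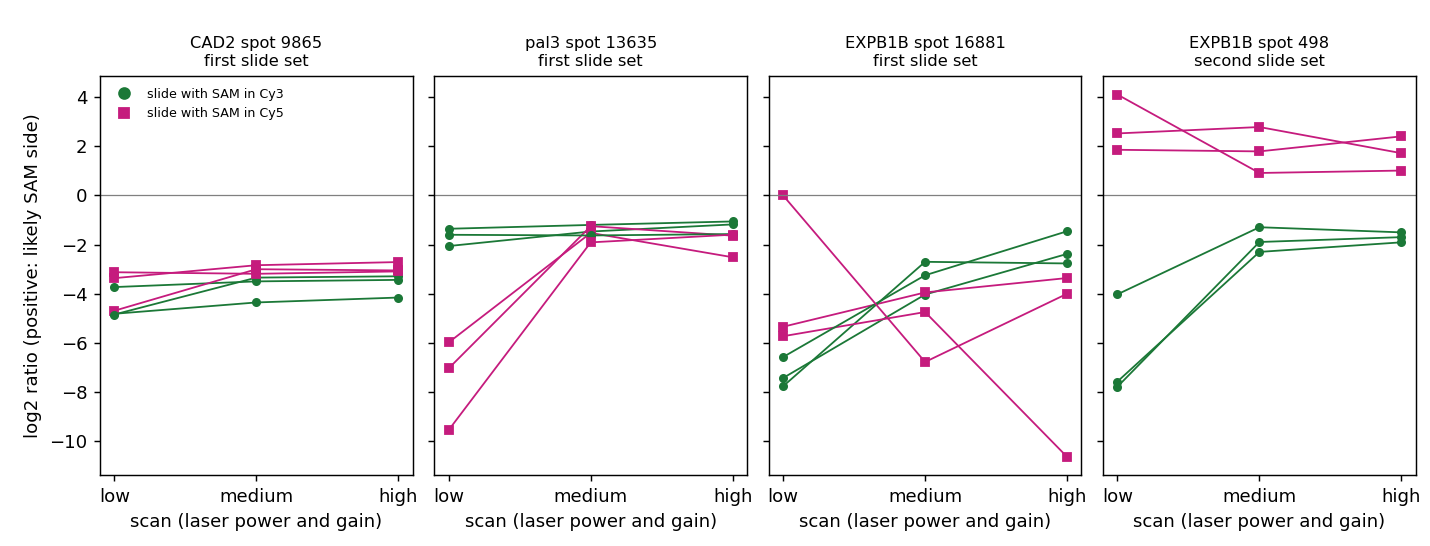
Log2 ratio of SAM over seedling (vertical axis) in the low, medium and high scan (horizontal axis) for 1 clone each of CAD2 and pal3 and 2 of EXPB1B; each line is a slide, marked by the dye SAM carried. The pal3 clone at spot 13635 lies between −9.54 and −5.98 in the low scan of the slides with SAM in Cy5 and near the other slides in the medium and high scans.

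CAD2, the last enzyme of the path, lay farthest to the seedling side. It gave −3.55, −4.44 and −3.83 with SAM in Cy3 and −2.97, −3.58 and −3.14 with SAM in Cy5. All 6 slides were far below 0, and the ranges of the dye orientations overlapped only slightly. The mean of −3.59 ± 0.52 (SD, n = 6) was a 12-fold difference with a 95% interval of 9.33 to 15.5 (limma adjusted p = 7.66e-06). The dye difference of −0.71 did not pass (limma adjusted p = 0.161). By scan the mean was −4.10 in the low, −3.37 in the medium and −3.29 in the high scan. A single clone, spot 9865, stands for CAD2, so the ratio has no second clone beside it. Its place was 539 of 582 from the SAM end.

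**Figure D4:**
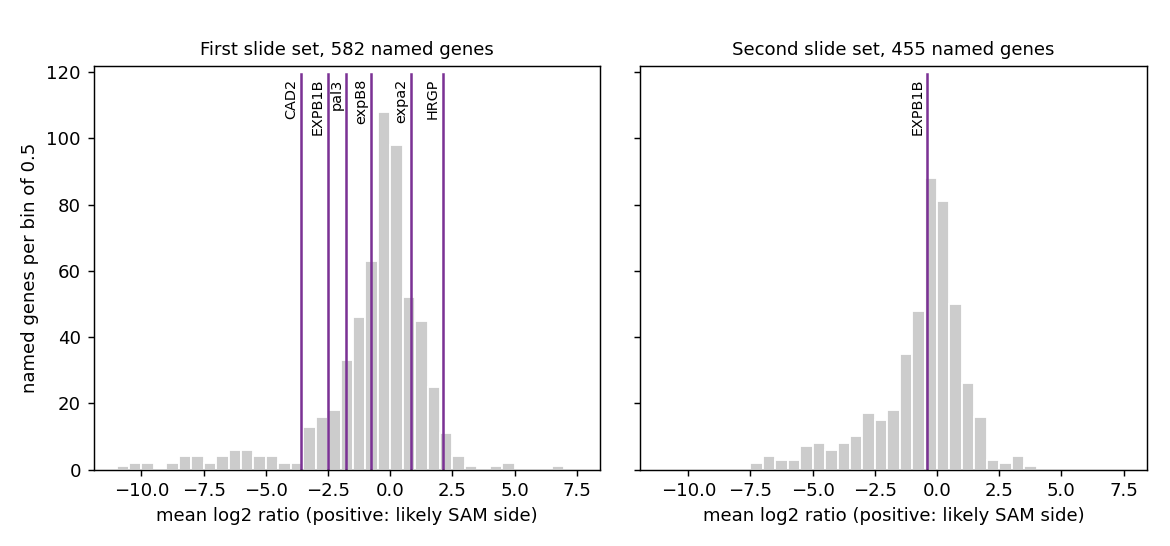
Number of named genes (vertical axis) per bin of mean log2 ratio of SAM over seedling (horizontal axis), for the 582 genes of the first set and the 455 of the second; vertical lines mark the wall genes described. HRGP is near the SAM end of the main peak of the first set and CAD2 at the start of the tail on the seedling side, and EXPB1B on the second set is close to 0.

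In the order of mean ratios on the first set, HRGP came first, followed by expa2, expB8, pal3, EXPB1B and CAD2. Each step was compared within slides by an exact two-sided sign-flip permutation test over 6 slides, adjusted over the 5 steps, where the smallest raw p is 0.03125. HRGP exceeded expa2 by 1.26 ± 0.43 (SD), expa2 exceeded expB8 by 1.61 ± 0.41 and expB8 exceeded pal3 by 1.0 ± 0.31. The step from pal3 to EXPB1B was 0.76 ± 0.66. These 4 steps had the same direction on 6 of 6 slides and the smallest p the exact test allows (adjusted p = 0.0391). EXPB1B exceeded CAD2 by 1.06 ± 0.77 on 5 of 6 slides and did not pass (exact adjusted p = 0.0625). The place of EXPB1B is that of a mean of clones far apart, at −4.61 (spot 16881) and −0.44 (spot 15635). Spot 15635 alone would place it above expB8, at −0.76. With each scan alone no step passed. After adjustment a step can pass only if at least 4 of the 5 steps reach the smallest p. A miss in a single scan therefore does not show that a step was lost there. Ratios of different genes come from different clones, so the order is one of ratios and not of transcript levels.

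Other genes of the wall were looked up by name. No further expansin with a value was found by name, and most spots of both sets carried no gene name. Of the other lignin enzymes, 4CL (4-coumarate CoA ligase) was at −1.40 ± 0.98 and passed on the seedling side (limma adjusted p = 0.0125). The cinnamoyl-CoA reductase ccr2, the step before CAD2, averaged −2.84 ± 3.85 and did not pass (limma adjusted p = 0.0645). Its slides lay between −2.65 and −0.79 except replicate 6, at −10.57. Without that slide its fitted ratio was −1.42 and passed, and without replicate 4 it was −3.71 and passed (limma adjusted p = 0.00175 and 0.0308). These alternatives were chosen after seeing the data. A gene listed as CCR and cncr1, symbols used for cinnamoyl-CoA reductase, was missed by the name search, which asked for a number, and was added after its value was seen. It was at −6.18 ± 2.31, from −10.22 to −3.43 over the slides, and passed on the seedling side (limma adjusted p = 0.00017). Of the listed lignin enzymes other than pal3 and CAD2, 1 of 2 passed on the seedling side, against 45.2% of all named genes of the set. CCR, chosen after its value was seen, is not counted there.

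Few genes looked up as structural wall proteins had values. The glycine-rich protein gene grp1 was taken in by its symbol, and whether its product lies in the wall was not tested. As a mean over 28 clones, grp1 was at −1.09 ± 0.30 on the first set and passed on the seedling side (limma adjusted p = 0.00023). On the second set, with 1 clone, it was at 0.04 ± 1.81 and did not pass (limma adjusted p = 0.956). There 5 slides lay between −0.01 and 1.23 and replicate 6 at −3.53. Without replicate 6, an alternative chosen after seeing the data, the fitted ratio was 0.83 and passed on the SAM side (limma adjusted p = 0.00279). The gene listed as GRP was also taken in by its symbol and, like CCR, added after its value was seen. It had a value on the first set alone, 1.17 ± 0.34, and was called toward SAM (limma adjusted p = 0.000461). AGP2, whose product the files do not describe, was at 0.26 and did not pass (limma adjusted p = 0.162). Agp2, at −0.10, matched by name only: it encodes an ADP-glucose pyrophosphorylase subunit and not a wall protein. Among genes of wall polysaccharides, RGP, a reversibly glycosylated polypeptide, passed on the seedling side of both sets, at −1.81 ± 0.71 in the first and −1.34 ± 0.29 in the second. The polygalacturonase PG14 passed on opposite sides, with −0.82 ± 0.47 in the first set and 1.19 ± 1.62 in the second. In the second it lay between −0.54 and 0.23 with SAM in Cy3 and between 2.55 and 2.70 with SAM in Cy5. The pectin methylesterase gene pme1 had a value on the second set alone, −0.77, and did not pass (limma adjusted p = 0.147).

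The named genes with the most similar ratios were found by the root mean square difference (rms) over the 6 slides, among 576 other genes of the first set. HRGP was nearest to cenH3, the centromeric histone (rms 0.304), and to hac106 (0.348). The gene expa2 was nearest to hmg2, a high mobility group protein (0.280), and to m20 (0.310). For expB8 they were pdi2, a protein disulfide isomerase (0.142), and GF14-6, a 14-3-3 protein (0.148). The closest to pal3 were gst10, a glutathione S-transferase (0.205), and hcf106, of thylakoid protein transport (0.225). EXPB1B and CAD2 had no gene as close. EXPB1B was nearest to the glutamine synthetase gene gln1 (0.532) and to H+-PPase (0.556), and CAD2 to lls1 (0.540) and the aquaporin PIP1-3 (0.547). On the second set EXPB1B was nearest to nas1, a nicotianamine synthase (0.357), and the tubulin gene tub5 (0.371), among 454 genes. Such likeness is a description over 6 slides of the same hybridisations.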

How the data were processed

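The deposited tables give a value per spot and scan, already a log ratio of the channels, read as a natural log and converted to log2 here. The log base is not given in the sources used here and was taken from the values. Values that recurred in a scan were paired, a value above the most frequent one with a value below it. In some pairs the distance of each from their midpoint was close to the natural log of a whole number. These were 76 of 7160 pairs on the first set (1.06%) and 24 of 1634 on the second (1.47%). For log2 they were 11 of 15157 and 1 of 2395. The base thus rests on a small share of the pairs. Read as log2, CAD2 would be at −2.49 and HRGP at 1.46. The image analysis, background handling and normalization by the authors are also not given in the sources used here. Slides of opposite dye orientation correlated positively (0.70 to 0.86 and 0.60 to 0.74), so the deposited values already run the same way on all slides. Scan medians lay between −0.08 and 0.06. Precision is limited by how many slides there were; intensities were not used.

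Of 36 scans on 12 slides, each was centred on its median and the 3 of a slide were averaged. The first set had 18302 spots with a value (1787 named) and the second 12027 (753 named). Spots without a value (898 and 2001) were left out, and 53 identical spots on the second set counted once. Names came from the platform annotation, with synonyms from the RefSeq genes of Zm-B73-REFERENCE-NAM-5.0. The first-set scan of replicate 4 at high settings has both dyes labelled as seedling; its sample name was followed. For 1 scan of the second set, the set was taken from its title. No value columns were left unused (0).

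limma 3.58.1 in R 4.3.3 (lmFit, eBayes) fitted an intercept and a dye term to gene means and to clones, with Benjamini-Hochberg adjustment over all genes or clones of a set and a threshold of 0.05. Unless stated, adjusted p-values are from this fit. Replicates are separate RNA pairs, and SDs are over 6 slides. The same RNA pairs were put on both sets. Once the mean of each gene was taken out, same-numbered slides correlated at 0.01 to 0.12 across the sets over 297 genes. These are not correlations of the ratios themselves. The best match was the slide of the same number for replicates 2 and 4 alone, so the values do not show the pairing. Named are the 6 genes with each clone, of each other list the 2 strongest in each direction, and the 2 nearest genes by rms. The other list members were named as counts of 5 or fewer. The genes and lists were chosen with earlier results of these data known, and the tests of the dye term and of single clones against their sisters were added later. Alternatives were no centring, scaled slides, each scan, no dye term, robust eBayes, each replicate or dye orientation left out, a 2-fold limit, the clone median, an exact test, other log bases and a replicate block. Floor values left out, EXPB1B clones left out, and replicates left out for other wall genes were chosen after seeing the data, as were CCR and GRP, which the list patterns missed. The fits were tested on simulated data. Tables were handled in pandas 2.3.3 and numpy 2.4.6 under Python 3.11.15, and in data.table (version 1.17.8); matplotlib 3.10.9 drew the plots.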

Additional observations from a re-analysis of the deposited data

Results flagged for a closer look

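In 4 of the 32 groups of 6 slides examined, 1 slide stood apart from the others by Dixon's test; chance flags about 1 in 20 groups. EXPB1B on the first set had −3.91 in replicate 4, where the other slides lay between −2.58 and −1.94. The same slide stood apart in its clone at spot 16881, at −7.04 against −4.61 to −3.59, so these are not independent. In the high scan of replicate 4 that clone gave −10.63, against −5.73 in the low and −4.74 in the medium scan. This high scan is the one with both dyes labelled as seedling. The expB8 clone at spot 3822 had 1.02 in replicate 1, against −0.08 to 0.26 on the other slides. The EXPB1B clone at spot 8875 of the second set had −5.14 in replicate 1, against −1.02 to −0.07 on the others, and was at the floor in 3 of its 18 scans. The cause of these values was not tested.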

How the results depend on the processing

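The 2-fold limit was run for the counts alone, and expa2 at 1.80-fold and expB8 at 1.69-fold lie below it. The exact sign-flip test of single genes was read by its raw p, 0.03125. Log bases, which rescale every value alike, are set aside here. On the first set the 6 genes kept their direction and their side of the threshold under the 19 alternatives run for each. Their ratios ranged from 1.92 to 2.34 for HRGP, 0.72 to 0.96 for expa2, −0.93 to −0.65 for expB8, −2.74 to −1.25 for pal3, −2.99 to −2.20 for EXPB1B and −4.10 to −3.23 for CAD2. On the second set EXPB1B, at −0.40 (limma adjusted p = 0.0239), no longer passed with the clone median (−0.29), the exact sign-flip test (−0.40), the low scan (−0.46), the high scan (−0.046), no dye term (−0.40), SAM in Cy5 alone (−0.0024) or floor values left out (−0.44, chosen after seeing the data). Leaving out single replicates gave −0.50 to −0.31, and replicates 2, 3 and 6 each lost the call. EXPB1B spot 498 reversed to 2.12 with SAM in Cy5 alone. The pal3 clone at spot 17617 lost its call with SAM in Cy5 alone (−0.07) and the expB8 clone at spot 17621 likewise (−0.41). With a 2-fold limit, 256 of the 421 genes and 6619 of the 11437 probes of the first set passed, and 188 of 335 genes and 3875 of 7769 probes of the second. The EXPB1B difference between sets kept its call with a replicate block (−2.12 ± 0.38 SE, limma adjusted p = 0.0065), where 94 genes passed, against 103 without it. Without the first-set clone at spot 16881 the difference was −0.041 and no longer passed (chosen after seeing the data). No step in the order of the genes passed in the single scans. There a step could pass only if most steps reached the smallest exact p, so a clear single step could miss. The cause of these changes was not tested.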
